A study of Arabidopsis thaliana with 6 samples.

Results

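The genes described here encode the enzymes of the Calvin cycle and of photorespiration, 36 of the 32313 gene codes in a table of read counts from Arabidopsis thaliana seedlings. They were taken by gene code from a list of enzymes with known functions. The rule uses no measured value, but the list was drawn up with earlier results of these data known. The Calvin cycle is represented by 23 genes, which encode the 4 small subunits of Rubisco, Rubisco activase, the enzymes that reduce and regenerate the sugar phosphates, and the 3 CP12 proteins. Photorespiration is represented by 13 genes, from the phosphatase PGLP1 to the glycerate kinase GLYK, together with the catalase CAT2.

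In the Calvin cycle, Rubisco joins carbon dioxide to ribulose bisphosphate in the chloroplast, the product is reduced with ATP and NADPH, and most of the triose phosphate formed is used to rebuild the acceptor. Rubisco also takes up oxygen, which yields phosphoglycolate, a compound the Calvin cycle cannot use. Photorespiration returns most of that carbon to the chloroplast by way of glycolate, glycine, serine and glycerate, in steps spread over the chloroplast, the peroxisome and the mitochondrion. Transcripts of both pathways are abundant in green tissue, depend on light and follow the circadian clock.

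Both groups of seedlings had the Columbia background and both were exposed to rapamycin, so the drug is common to every library. They were transferred 15 days after germination from medium of 0.5 MS strength to the same medium with 10 µg/ml rapamycin and kept there for 3 days. WT is the wild type, and BP12-2 is a line labelled a knockdown of the kinase TOR. As background, BP12 lines make yeast FKBP12, the protein through which rapamycin binds and inhibits TOR, whereas the plant's own FKBP12 does so poorly. The labels do not describe the transgene or its promoter. Whole seedlings were used, 3 libraries per group, and 1 BP12 line was studied. The protocol also names a DMSO control, not analysed here, so a difference that BP12-2 shows without the drug cannot be told apart from a response to it. Library totals ran from 6706610 to 17092773 counts. Nothing in the labels says that libraries of a group came from separate cultures, so each p-value reflects the spread among libraries, possibly technical. Every SE and SD given for a group or a fold change rests on n = 3 libraries per group. TOR itself (AT1G50030) was at 27.8 to 32.6 CPM (counts scaled to library size, with TMM factors) in BP12-2 and at 34.3 to 38.5 CPM in WT, with a log2 fold change of -0.22 ± 0.10 (SE; edgeR adjusted p = 0.292). All 3 BP12-2 libraries carry the code L08 in the column names and all 3 WT libraries the code L07. No source used here says what the code means, and code and genotype cannot be told apart.

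The Rubisco small subunit is encoded by a gene on chromosome 1, RBCS1A, and by 3 genes that lie next to each other on chromosome 5. The stretch shown here, coding bases 301 to 390 counted from the start codon, is shown because the likeness of these genes limits how reads can be assigned to each of them. It was read from the TAIR10.1 genome, the coding strand (minus in all 4 genes) 5′ to 3′, and capitals mark bases that differ from RBCS3B.
RBCS3B: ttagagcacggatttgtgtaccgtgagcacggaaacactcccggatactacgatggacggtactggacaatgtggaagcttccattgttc
RBCS1B: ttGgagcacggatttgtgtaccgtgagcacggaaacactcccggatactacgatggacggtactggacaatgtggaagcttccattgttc
RBCS2B: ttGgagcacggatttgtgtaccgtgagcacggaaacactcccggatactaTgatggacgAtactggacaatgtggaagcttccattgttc
RBCS1A: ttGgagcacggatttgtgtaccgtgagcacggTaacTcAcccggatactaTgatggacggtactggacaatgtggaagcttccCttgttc
In these 90 bases RBCS1B, RBCS2B and RBCS1A differ from RBCS3B at 1, 3 and 6 positions. Over the whole coding sequence the 3 genes of chromosome 5 are 96.7% to 97.2% identical to each other and 89.9% to 90.1% identical to RBCS1A. RBCS1B, RBCS2B and RBCS3B share 13.95%, 21.4% and 14.6% of the 50-base words of their transcripts with another counted gene, against 1.42% for RBCS1A, so counts within the chromosome 5 cluster are uncertain. PGLP1 is the extreme case, since 91.2% of its words also occur in AT5G36790, a copy with an identical coding sequence. The glycolate oxidase genes GOX1 and GOX2 lie side by side on chromosome 3 and share 0.921% and 1.07% of their words. Of the 36 members, 25 share no 50-base word with any other counted gene. Exons of 9 members overlap an exon of another counted gene, whose mean level was at most 3.81% of the member's own (AT4G35080, opposite CAT2), and strand use in counting is not stated.

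Per kilobase of exon, RBCS1A was the most abundant member, with a mean level of 5744 CPM per kb over the 6 libraries. Next came RCA, which encodes the chaperone that reactivates Rubisco, at 3239 CPM per kb, RBCS3B at 2934 and RBCS2B at 2565 CPM per kb. The annotated exon lengths of the 4 small subunit genes ran from 935 bases (RBCS2B) to 1894 bases (RBCS1B). Their coding sequences are nearly equal in length. The order of these genes and RCA per kilobase therefore depends on the annotated exons, and other lengths were not tried. In photorespiration the highest levels per length were those of GLDP1, the P protein that decarboxylates glycine, at 874 CPM per kb, AGT1 at 588 and CAT2 at 587 CPM per kb. The lowest were CP12-3 at 20.4, PGLP1 at 23.3, GLYK at 28.8, HPR1 at 32.8 and RPE at 37.9 CPM per kb. All 36 members passed the filter on low counts, and the member with the lowest level, CP12-3, had between 127 and 302 counts per library. Together the Calvin cycle members took 3.35%, 4.16% and 4.15% of all counts in BP12-2 replicates 1 to 3 and 3.46%, 2.93% and 2.62% in WT replicates 1 to 3. The photorespiration members took 0.898%, 0.989% and 1.06% in BP12-2 and 1.03%, 0.851% and 0.706% in WT. Wilson 95% intervals of these shares reach at most 0.0151 percentage points to either side and cover counting error only. Groups overlapped in both shares, since WT replicate 1 lay above BP12-2 replicate 1.

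In BP12-2 most transcripts of both pathways were somewhat more abundant than in WT, by a median of 1.27-fold for the Calvin cycle and 1.25-fold for photorespiration. The log2 fold change was positive for 22 of 23 Calvin cycle members (median 0.35, range -0.02 to 0.66) and for 11 of 13 photorespiration members (median 0.33, range -0.19 to 0.43). Among all 19436 genes tested it was positive for 50.8%, with a median of 0.01. No single member passed the edgeR quasi-likelihood test with genotype as the only term, with adjusted p from 0.103 for GOX2 to 0.957 for FBA3. That test called 13 genes, 0.0669% of those tested, and 0.00515% (1 gene) as higher in BP12-2. At an unadjusted p under 0.05 there were 14 members, all higher in BP12-2, against 18.2% of all genes in either direction and 9.03% higher. All 3 BP12-2 libraries lay above all 3 WT libraries for 16 of the 36 members, against 12.1% of all genes, and below them for 1 member, GDCH1, against 12.2%. DESeq2 called 4 members and the edgeR exact test 1, RBCS3B, all higher. Those tests called 3.19% and 4.33% of all genes, and 1.46% and 2.05% as higher.

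**Figure D1:**
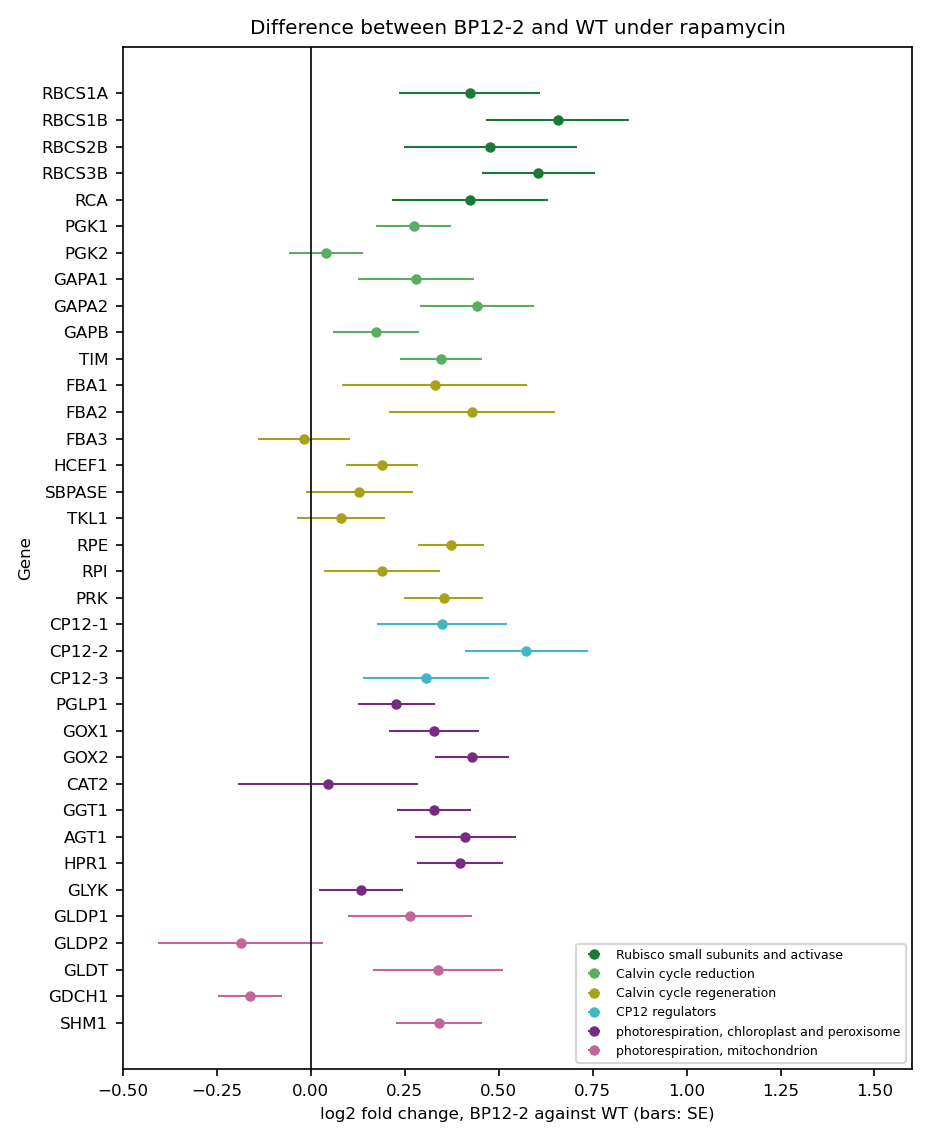
The log2 fold change of each member (x axis, BP12-2 against WT, bars are SE, n = 3 per group) is plotted by gene (y axis), coloured by role. Points lie to the right of 0 for 33 of the 36 genes, and FBA3, GLDP2 and GDCH1 lie to the left.

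The pathways were compared within each library, as the median over their members of the log2 CPM minus the mean of the 6 libraries. The Calvin cycle median was -0.02, 0.24 and 0.19 in BP12-2 replicates 1 to 3 and -0.04, -0.15 and -0.27 in WT replicates 1 to 3. Photorespiration gave 0.06, 0.11 and 0.18 in BP12-2 and 0.01, -0.15 and -0.26 in WT. For each pathway WT replicate 3 was the lowest library, and the lowest BP12-2 library lay just above the highest WT library. The Calvin cycle median minus the photorespiration median was -0.08, 0.13 and 0.01 in BP12-2 and -0.06, 0.0037 and -0.0036 in WT. The 2 pathways thus deviated by nearly the same amount from their own means in 3 of the 6 libraries. The within-group SD of these library differences was 0.08. A separate measure is the median log2 fold change of the Calvin cycle members minus that of the photorespiration members. It was 0.02, and it was 0.10 when means replaced medians or without BP12-2 replicate 1. Members are not replicates, and no p is given for these medians.

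**Figure D2:**
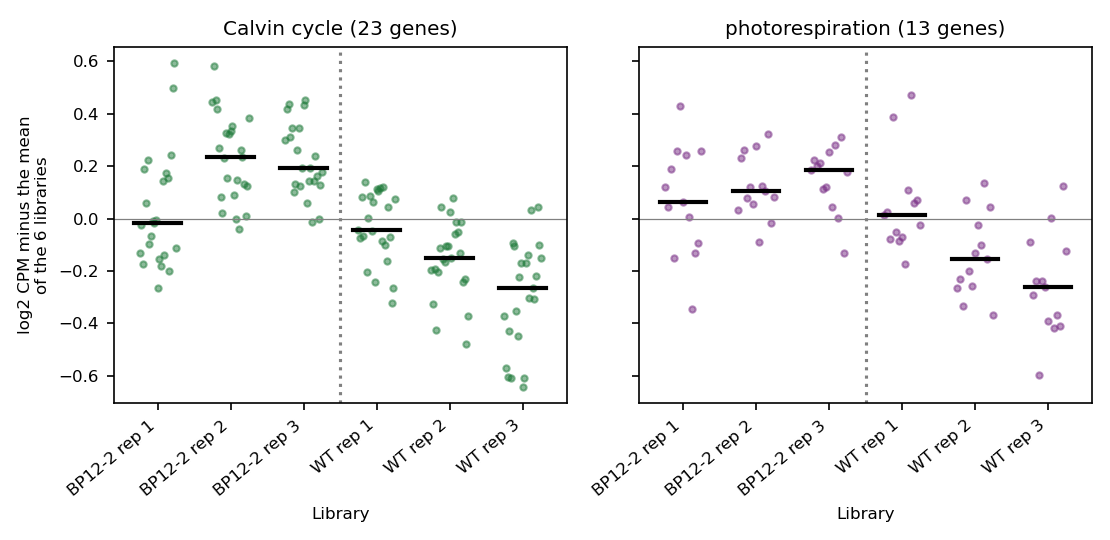
Each point is 1 gene in 1 library (x axis), as log2 CPM minus its mean over the 6 libraries (y axis), for 23 Calvin cycle genes and 13 photorespiration genes, with the median as a black bar. Medians run from 0.24 in BP12-2 replicate 2 to -0.27 in WT replicate 3 for the Calvin cycle, with BP12-2 replicate 1 (-0.02) close to WT replicate 1 (-0.04).

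The 5 genes of Rubisco itself and its activase had a median log2 fold change of 0.48, and all 5 were positive. RBCS1A (chr1:25048158-25049667, TAIR10.1), the most abundant small subunit gene, was counted at 6519.9, 9726 and 8784 CPM (BP12-2 replicates 1 to 3) and at 6929, 6225 and 5518 CPM (WT replicates 1 to 3). BP12-2 replicate 1 lay inside the WT range, while the other BP12-2 libraries lay above it. Its log2 fold change was 0.42 ± 0.19 (SE), not past the test (edgeR adjusted p = 0.286). RBCS1B (chr5:15383167-15385320), the least abundant of the 4, had a log2 fold change of 0.66 ± 0.19 (SE), with 957, 1457 and 1299.5 CPM in BP12-2 and 924, 777 and 655 CPM in WT. Every BP12-2 library was higher than every WT library, BP12-2 replicate 1 by a small margin (edgeR adjusted p = 0.146; adjusted p = 0.0430 by DESeq2). For RBCS3B (chr5:15376988-15378642), named here after its values were seen, the 6 values were 4599, 5383 and 4996 CPM in BP12-2 and 3845, 3004 and 2996 CPM in WT. The groups were separated here too (edgeR adjusted p = 0.115), and adjusted p was 0.00589 by DESeq2 and 0.0169 by the edgeR exact test. RBCS2B (chr5:15380907-15382071) and RCA had log2 fold changes of 0.48 and 0.42, with overlapping groups. Without WT replicate 3 these were 0.31 and 0.25.

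The make-up of the small subunit transcripts differed by a few percentage points between libraries. RBCS1A supplied 46.1%, 49.3% and 48.2% of the counts of the 4 RBCS genes in BP12-2 replicates 1 to 3 and 48.9%, 51.7% and 51.6% in WT replicates 1 to 3, so the groups overlapped. RBCS1B supplied 6.77%, 7.38% and 7.13% in BP12-2 and 6.53%, 6.46% and 6.12% in WT, with no overlap. RBCS3B supplied 32.5% in BP12-2 replicate 1 and at most 28.0% in the other 5 libraries. Wilson 95% intervals reach at most 0.296 percentage points to either side of these shares, which does not cover the uncertain assignment of reads within the cluster.

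The 6 genes of the reduction phase encode phosphoglycerate kinase (PGK1 and AT1G56190), the chloroplast glyceraldehyde phosphate dehydrogenase subunits (GAPA1, GAPA2 and GAPB) and triose phosphate isomerase (TIM). All had positive log2 fold changes, from 0.04 to 0.44 (median 0.28). For PGK1, GAPA2 and TIM every BP12-2 library lay above every WT library, against 12.1% of all genes. GAPA1 (chr3:9794862-9797045), the most abundant, was at 1574, 1939 and 1976 CPM in BP12-2 and 1749, 1482 and 1291 CPM in WT. WT replicate 1 lay above BP12-2 replicate 1, and the log2 fold change was 0.28 ± 0.15 (SE) (edgeR adjusted p = 0.384), or 0.18 without WT replicate 3. Its paralogue GAPA2 (chr1:4392438-4394454) was at 992, 1253 and 1270.1 CPM in BP12-2 and 966, 889.7 and 731 CPM in WT. Each BP12-2 value exceeded each WT value, with a log2 fold change of 0.44 ± 0.15 (SE) and edgeR adjusted p = 0.193. GAPA1 supplied 61.4%, 60.7% and 60.9% of the GAPA counts in BP12-2 and 64.4%, 62.5% and 63.8% in WT, so GAPA2 took a larger share in every BP12-2 library (intervals at most 0.657 points to either side). AT1G56190 (chr1:21028137-21030684), the second phosphoglycerate kinase gene of the list (plotted as PGK2), was at 147, 159.6 and 172 CPM in BP12-2 and 157, 162 and 146 CPM in WT and had a log2 fold change of 0.04 ± 0.10 (SE), with overlapping groups (edgeR adjusted p = 0.868). It was -0.017 without BP12-2 replicate 3 and -0.0016 without WT replicate 3.

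Of the 9 regeneration genes, 8 had positive log2 fold changes (median 0.19). Every BP12-2 library lay above every WT library for RPE, PRK and HCEF1, against 12.1% of all genes. HCEF1 encodes the chloroplast fructose bisphosphatase. The transketolase gene TKL1 (chr3:22453668-22457458), highest of them in CPM though not per kilobase, was counted at 2503, 2158 and 2200.1 CPM (BP12-2 replicates 1 to 3) and at 2073, 2145 and 2269.8 CPM (WT replicates 1 to 3). Its groups overlapped, with a log2 fold change of 0.08 ± 0.12 (SE) (edgeR adjusted p = 0.763), or 0.010 without BP12-2 replicate 1. The aldolase gene FBA2 (chr4:18163496-18166008) had a log2 fold change of 0.43 ± 0.22 (SE), from 1096, 1557 and 1669 CPM in BP12-2 and 1311, 1099 and 801 CPM in WT. Here BP12-2 replicate 1 was at the level of WT replicate 2 and under WT replicate 1, WT replicate 3 was lowest, and the difference was not past the test (edgeR adjusted p = 0.351). Without WT replicate 3 it was 0.26, less than for RPE (0.33) and PRK (0.33). FBA3 (chr2:94727-96863), another aldolase gene, was the single Calvin cycle member with a negative log2 fold change, -0.02 ± 0.12 (SE), at 296, 357 and 349 CPM in BP12-2 and 363, 354 and 298 CPM in WT. Its sign turned positive with upper-quartile factors (0.00066) and without BP12-2 replicate 1 (0.060), WT replicate 1 (0.033) or WT replicate 2 (0.014). By contrast RPE, the epimerase gene (chr5:24683606-24686217, chosen after its values were seen), had small spreads, 65.0 ± 2.97 CPM (SD) in BP12-2 against 50.2 ± 2.42 CPM in WT, and the lowest adjusted p of the Calvin cycle (edgeR adjusted p = 0.107). PRK, the kinase that makes the Rubisco substrate, was at 1321 ± 52.6 CPM (SD) in BP12-2 against 1034 ± 67.5 CPM in WT, with adjusted p = 0.0489 by DESeq2 and edgeR adjusted p = 0.154. SBPASE, whose product is committed to regeneration, had a log2 fold change of 0.13, the isomerase gene RPI (AT3G04790) 0.19, FBA1 0.33 and HCEF1 0.19. Without WT replicate 3 these were 0.019, 0.088, 0.13 and 0.17, and without BP12-2 replicate 1 SBPASE was at 0.22, RPI at 0.32 and FBA1 at 0.52. Without BP12-2 replicate 3 SBPASE was at 0.066, RPI at 0.12 and FBA1 at 0.20.

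CP12 proteins hold GAPDH and PRK in an inactive complex in the dark. CP12-1 (chr2:19446730-19447642), the most abundant of the 3, was at 1201, 857 and 850.2 CPM in BP12-2 and 680.1, 725 and 878 CPM in WT. Only BP12-2 replicate 1 stood well apart, and WT replicate 3 lay above the other 2 BP12-2 libraries (edgeR adjusted p = 0.332). The log2 fold change was 0.35 ± 0.17 (SE), or 0.16 without BP12-2 replicate 1. CP12-2 (chr3:23090944-23091580) was at 604, 437 and 438 CPM in BP12-2 and 334, 287 and 373 CPM in WT. All BP12-2 values exceeded all WT values, and the log2 fold change was 0.57 ± 0.16 (SE) (edgeR adjusted p = 0.143). CP12-3 (chr1:28728206-28728976), a low transcript, was at 14.4, 20.3 and 17.6 CPM in BP12-2 and 16.4, 12.0 and 14.0 CPM in WT, with overlapping groups and a log2 fold change of 0.31 ± 0.17 (SE) (edgeR adjusted p = 0.378), or 0.19 without BP12-2 replicate 2.

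**Figure D3:**
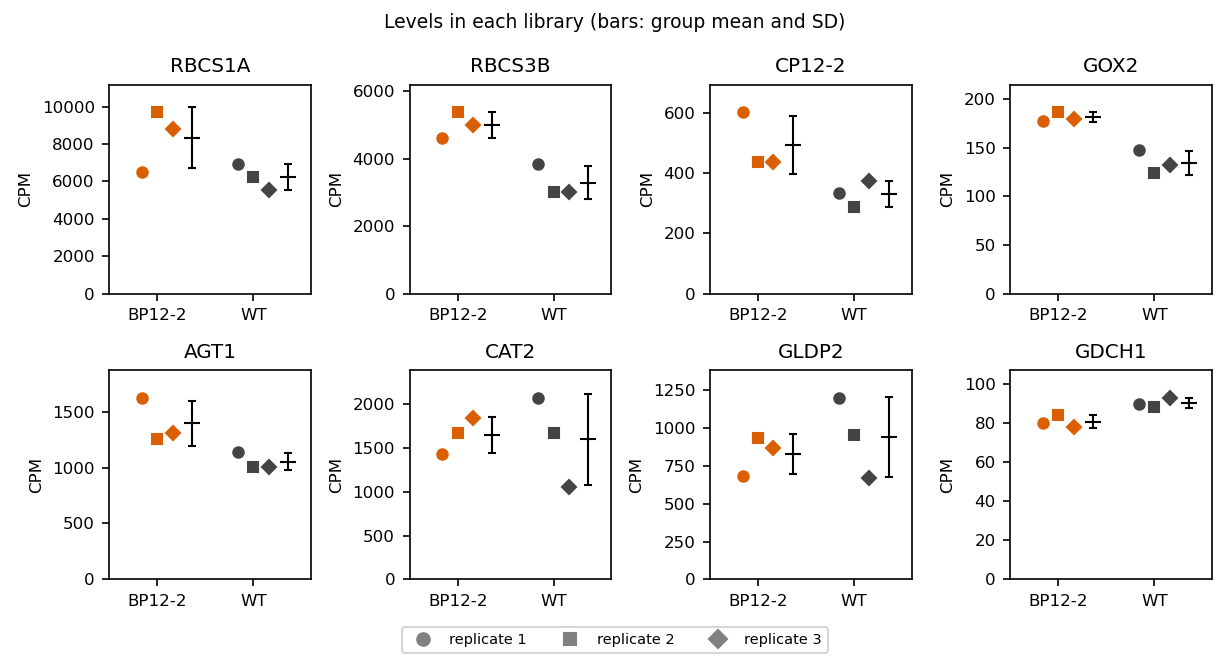
CPM (y axis, from 0) of 8 members in each library, with marker shape for the replicate and bars for the group mean and SD (n = 3). RBCS3B, CP12-2, GOX2 and AGT1 show BP12-2 above WT in every library, GDCH1 shows the reverse, and RBCS1A, CAT2 and GLDP2 overlap.

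For the photorespiration genes of chloroplast and peroxisome, 8 of 8 log2 fold changes were positive (median 0.33). All but CAT2 and GLYK had every BP12-2 library above every WT library, against 12.1% of all genes. GOX2 (chr3:4818251-4821013), one of the oxidases that turn glycolate into glyoxylate, was at 178, 187 and 179 CPM in BP12-2 and 148, 124 and 132 CPM in WT. The BP12-2 values lay close together above all WT values, and the log2 fold change was 0.43 ± 0.10 (SE). It had the lowest adjusted p of the 36 members (edgeR adjusted p = 0.103), and adjusted p was 0.0228 by DESeq2. GOX1 gave 505 ± 36.4 CPM (SD) in BP12-2 against 403 ± 48.4 CPM in WT. GOX1 supplied 72.3% to 74.6% of the counts of this gene pair in BP12-2 and 73.5% to 75.6% in WT, with overlapping groups and intervals of at most 1.25 points to either side. The aminotransferase genes AGT1 and GGT1 and the hydroxypyruvate reductase gene HPR1 had log2 fold changes of 0.41, 0.33 and 0.40, none past the edgeR test. AGT1 was at 1625, 1252 and 1313 CPM in BP12-2 and 1138, 1009 and 1006 CPM in WT, highest in BP12-2 replicate 1. PGLP1, which starts the pathway, was at 53.3, 50.1 and 55.7 CPM in BP12-2 and 49.5, 40.7 and 46.1 CPM in WT. With its copy AT5G36790 added, it reached 103 ± 2.72 CPM (SD) in BP12-2 against 82.5 ± 8.97 CPM in WT. GLYK (AT1G80380), which ends the pathway, had a log2 fold change of 0.13 with overlapping groups, or 0.040 without BP12-2 replicate 1 and 0.21 without BP12-2 replicate 2.

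CAT2 (chr4:16700312-16703504), the catalase that removes the hydrogen peroxide made by glycolate oxidase, was the peroxisomal member highest in CPM, level with AGT1 per kilobase, and had a smaller log2 fold change than the oxidases. It was counted at 1429, 1676 and 1842 CPM (BP12-2 replicates 1 to 3) and at 2076, 1668 and 1051 CPM (WT replicates 1 to 3). WT replicate 1 was the highest and WT replicate 3 the lowest of all 6, so the WT range enclosed the whole BP12-2 range. The log2 fold change was 0.05 ± 0.24 (SE) (edgeR adjusted p = 0.947), and it turned negative without WT replicate 3 (-0.18) or without BP12-2 replicate 3 (-0.04). CAT3, a catalase gene whose transcript is known to peak in the evening and which is no member, was at 3095, 1206 and 1463 CPM in BP12-2 and 1129, 2159 and 3251 CPM in WT, highest in WT replicate 3 and BP12-2 replicate 1.

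In the mitochondrion, glycine is split by a complex of P, T, H and L proteins and SHM1 makes serine from the product. These 5 genes were the most mixed group, with 3 positive and 2 negative log2 fold changes (median 0.26). GLDP1 (chr4:15926652-15931422), the main P protein gene, was at 3114, 3375 and 3768 CPM in BP12-2 and 3339.7, 2886 and 2318 CPM in WT, with a log2 fold change of 0.26 ± 0.16 (SE) (edgeR adjusted p = 0.442), or 0.14 without WT replicate 3. WT replicate 1 lay within the BP12-2 range. GLDP2 (chr2:11109003-11114291), its paralogue, was at 683, 934 and 869 CPM in BP12-2 and 1203, 955 and 673 CPM in WT. WT replicate 1 was the highest and WT replicate 3 the lowest, and the log2 fold change was -0.19 ± 0.22 (SE) (edgeR adjusted p = 0.70), or 0.025 without WT replicate 1. As a share of both P protein genes, GLDP1 supplied 82.0%, 78.3% and 81.3% of counts in BP12-2 replicates 1 to 3 and 73.5%, 75.1% and 77.5% in WT replicates 1 to 3. The groups did not overlap in this share, with a mean of 80.5% ± 1.95 (SD) in BP12-2 against 75.4% ± 2.00 in WT, and intervals of at most 0.477 points to either side.

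SHM1 (chr4:17831731-17835017) had a log2 fold change of 0.34 ± 0.12 (SE), with 198, 175 and 187 CPM in BP12-2 and 162, 128 and 152 CPM in WT and no overlap of the groups (edgeR adjusted p = 0.189). The T protein gene AT1G11860 (plotted as GLDT) had a log2 fold change of 0.34 with overlapping groups. GDCH1 (chr2:14891041-14892298), an H protein gene named here after its values were seen, was at 79.9, 84.2 and 77.8 CPM in BP12-2 and 89.5, 88.0 and 93.1 CPM in WT. All 3 BP12-2 values lay below all 3 WT values, and the log2 fold change was -0.16 ± 0.08 (SE), not past the test (edgeR adjusted p = 0.352). The H protein genes GDC-H3 and GDC-H2, which are no members, had log2 fold changes of 0.08 and -0.02 with overlapping groups.

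**Figure D4:**
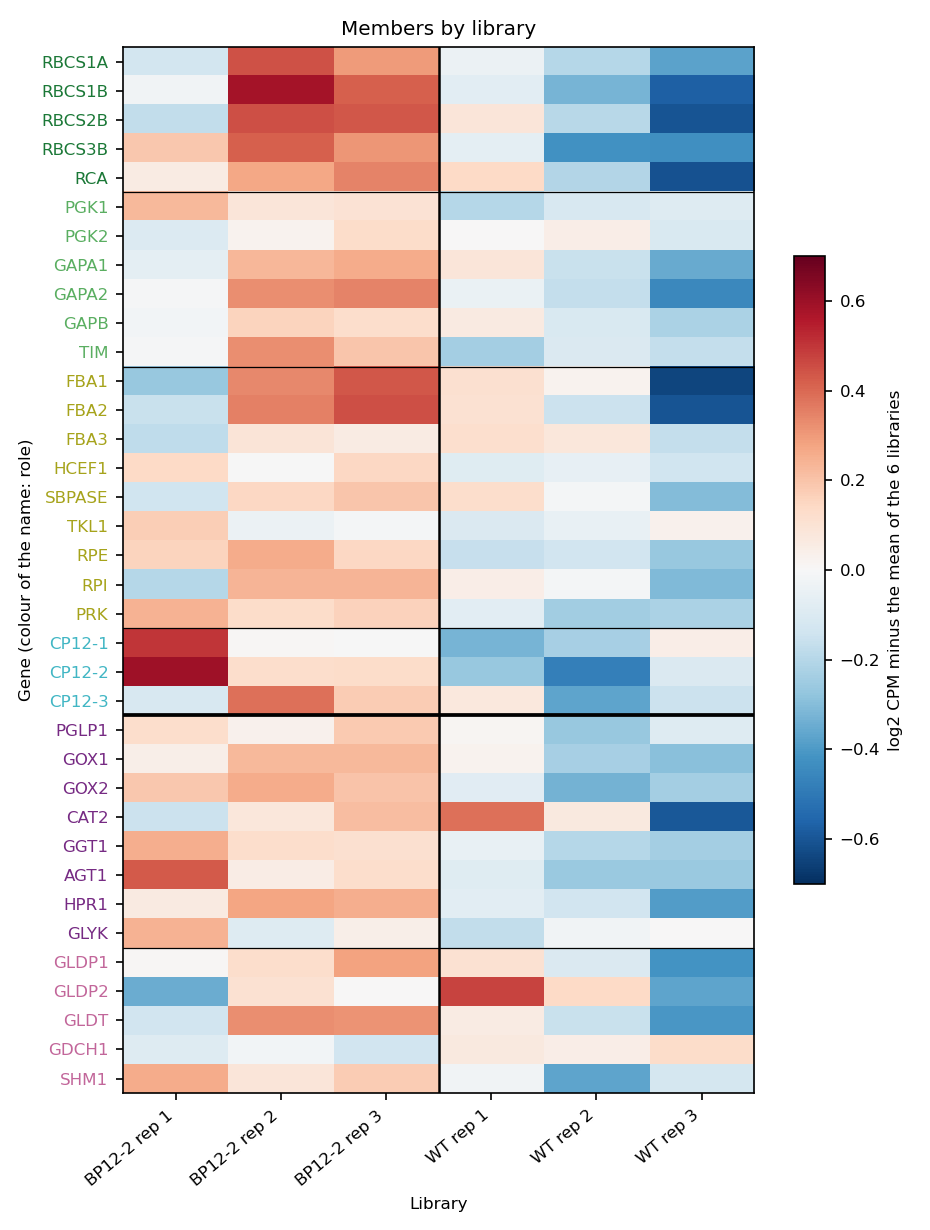
Log2 CPM minus the mean of the 6 libraries (colour) for the 36 members (rows, names coloured by role, thick line between the pathways) in each library (columns). WT replicate 3 is the lowest WT library for 24 members and BP12-2 replicate 1 the lowest BP12-2 library for 23, with CP12-1, CP12-2 and AGT1 highest in BP12-2 replicate 1. The lowest library was not counted over all genes.

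BP12-2 replicate 1 and WT replicate 3 differed from the other 4 libraries in circadian clock transcripts, and many members differed with them. The mean log2 level of 4 morning clock genes minus that of 5 evening clock genes, relative to all libraries, was -1.47 and -1.54 in these 2 libraries and 0.60 to 0.88 in the other 4. The morning genes did not move together. CCA1 and LHY were lower in these 2 libraries than in any other. PRR7 was higher, at 212 and 208 CPM against 77.7 to 92.2 CPM. PRR9, at 43.3 and 49.2 CPM, lay within the range of the others, 42.6 to 52.7 CPM. Every evening gene was higher in these 2 libraries than in any other. Of the 36 members, 23 were lower in both than in the mean of the other 2 libraries of their genotype, 7 were higher in both and 6 went opposite ways. Among all genes tested 31.9% were lower in both and 31.8% higher in both. The lower set held all 5 Rubisco and activase genes. On the log2 scale FBA1 differed by -0.65 in BP12-2 replicate 1 and by -0.71 in WT replicate 3, RBCS2B by -0.62 and -0.55, and CAT2 by -0.30 and -0.82. CP12-1 differed by 0.49 and 0.32 and CP12-2 by 0.47 and 0.27. PGK1, TKL1, GLYK, SHM1 and PGLP1 were the other members higher in both, by 0.01 to 0.27. Over the 36 members the shift in BP12-2 replicate 1 and that in WT replicate 3 had a Pearson correlation of 0.80 and a Spearman correlation of 0.81, against 0.47 and 0.39 over all genes tested. Genes are not independent points, and no p is given.

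**Figure D5:**
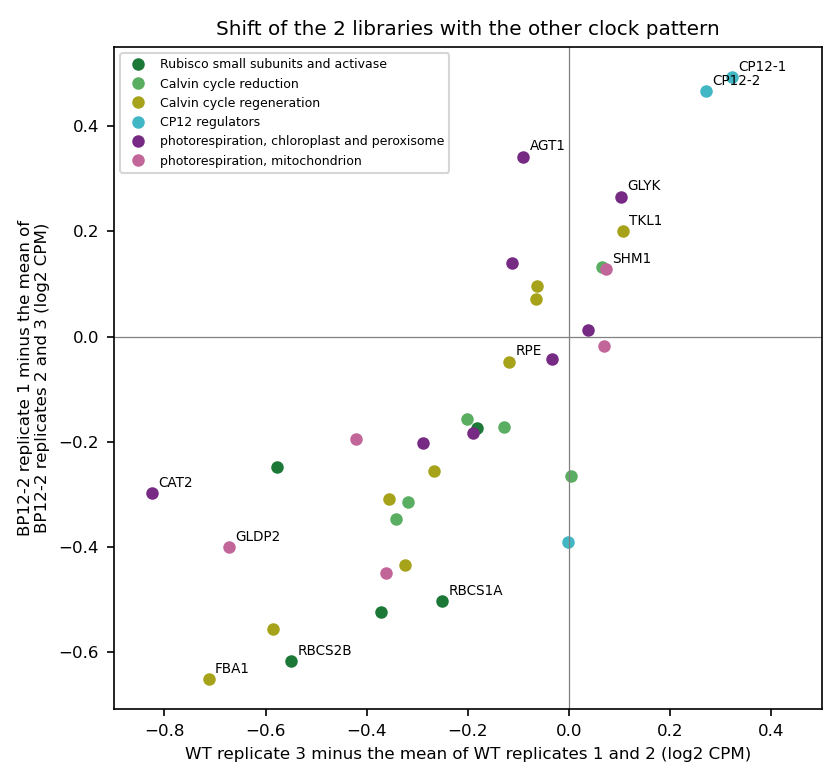
For each member, the log2 CPM of WT replicate 3 minus the mean of WT replicates 1 and 2 (x axis) is plotted against that of BP12-2 replicate 1 minus the mean of BP12-2 replicates 2 and 3 (y axis), coloured by role. Rubisco genes lie at lower left and CP12-1 and CP12-2 at upper right, with 30 of the 36 members on the same side of 0 on both axes.

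A fit with a term for these 2 libraries, an alternative chosen with earlier results of these data known, called 9 members, all higher in BP12-2, against 5.1% of all genes called and 2.52% called higher. They were RBCS1B (adjusted p = 0.0201), CP12-2 (0.0227), GAPA2 (0.0279), RBCS3B (0.0312), HPR1 (0.0325), RBCS2B (0.0388), GOX2 (0.0405), RPE (0.0405) and FBA2 (0.0424), by the edgeR quasi-likelihood test. The medians hardly moved, at 0.34 for the Calvin cycle and 0.33 for photorespiration. In the 4 libraries of the common clock pattern they were 0.32 and 0.24, and no member passed the edgeR test, with 23 at an unadjusted p under 0.05, against 19% of all genes. The 2 libraries apart hold 1 per group and allow no test.

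None of the genes listed as working beside the members passed the edgeR test. Their counts at an unadjusted p under 0.05 stand against 18.2% of all genes in either direction and 9.03% higher. Of 22 genes of transport, ammonium refixation and minor isoforms around photorespiration, 15 were positive (median 0.16), and 6, all higher, had an unadjusted p under 0.05. Of 13 measured genes of Rubisco assembly and Calvin cycle activation all were positive (median 0.19) and 2 had an unadjusted p under 0.05. The 9 cytosolic or minor isoforms of Calvin cycle enzymes went both ways (6 positive, median 0.03), with 2 higher and 1 lower at an unadjusted p under 0.05. Of 12 regulators of photosynthesis genes 8 were positive (median 0.11), and the GATA factor gene CGA1 alone had an unadjusted p under 0.05, with a log2 fold change of -0.65 ± 0.25 (SE; edgeR adjusted p = 0.230).

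No marker of green tissue, root or senescence passed the edgeR test. At an unadjusted p under 0.05 there were 3 of 7 green tissue and 5 of 11 root markers, all higher in BP12-2. Of the senescence markers 1 of 6 was under it, lower in BP12-2. Among all genes the share was 18.2% in either direction and 9.03% higher. The part of these tissues in the results above was not tested. In whole seedlings a change in the share of green cells and a change of RNA per cell cannot be told apart. All 7 green tissue markers outside both pathways were positive (median 0.30), with a summed level of 31107 to 40315 CPM in BP12-2 and 27026 to 30936 CPM in WT. Of 12 root markers, 11 were measured and 9 were positive (median 0.50), with summed levels of 1305 to 1513 CPM in BP12-2 and 927 to 1063 CPM in WT, most of it PYK10. WOX5 was under the filter, and no root marker was at 0 in every library. All 6 senescence markers were negative (median -0.35), with summed levels of 139 to 178 CPM in BP12-2 and 163 to 232 CPM in WT, so the sums overlapped, and SAG12 was at 1.40, 0.451 and 0.0582 CPM in BP12-2 and 0.129, 1.56 and 2.41 CPM in WT.

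Upstream sequence was searched in the 250 bases before each annotated gene start of TAIR10.1, on both strands, for the G-box CACGTG and the I-box core GATAAG, elements known from light-regulated promoters, and for the evening element AAATATCT and the CCA1-binding site AAAAATCT of clock-regulated promoters. The clock motifs end in the same letters, ATCT. A G-box occurred before 5 of the 36 members (13.9%), namely RBCS2B, HCEF1, PRK, GGT1 and GLDP1, against 5.92% of 31785 windows of all counted genes. The I-box core occurred before 6 members (16.7%, against 12.7%), the CCA1-binding site before 1, GOX1 (2.78%, against 6.33%), and the evening element before none (against 4.54%). The windows with the most matches, those of RBCS2B and HCEF1, are shown with matches in capitals.
RBCS2B upstream: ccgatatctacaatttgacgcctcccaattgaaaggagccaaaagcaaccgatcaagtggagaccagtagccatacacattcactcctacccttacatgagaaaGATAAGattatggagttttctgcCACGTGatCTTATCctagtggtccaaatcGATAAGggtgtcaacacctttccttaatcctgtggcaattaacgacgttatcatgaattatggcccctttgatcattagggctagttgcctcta
HCEF1 upstream: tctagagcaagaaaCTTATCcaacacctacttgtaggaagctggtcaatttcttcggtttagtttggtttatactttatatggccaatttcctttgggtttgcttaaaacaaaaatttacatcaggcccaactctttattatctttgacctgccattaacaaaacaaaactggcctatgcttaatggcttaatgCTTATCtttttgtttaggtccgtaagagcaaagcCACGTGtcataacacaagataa
The first is chr5:15382072-15382321 on the minus strand and the second chr3:20016587-20016836 on the plus strand, both from the RefSeq TAIR10.1 assembly. A match describes letters in these windows and not a site in use. A lack of matches depends on the annotated gene start, which can lie upstream of the start of some transcripts. The RBCS1B window, without a match, ends in a stretch that resembles the one just before the matches of RBCS2B. The bases that follow it in RBCS1B were not searched.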

How the data were processed

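RNA-seq counts of 3 WT and 3 BP12-2 libraries were used. Per the labels, total RNA was isolated with an RNeasy kit, and per the submitters' processing notes reads were aligned with Bowtie to TAIR9, counted with HTSeq and tested with edgeR. No source used here gives versions, counting mode or strand use. The deposited table holds raw counts, and no column was left out. The members and lists were chosen with earlier results of these data known.

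Groups and replicate numbers came from the titles. No library repeated another (smallest chi-square per degree of freedom 10.9). Of 32313 gene codes, 19436 passed filterByExpr of edgeR (minimum count 10, minimum total 15), and TMM factors lay between 0.972 and 1.021. Genotypes were compared by the quasi-likelihood F test of edgeR (2-sided, genotype only, Benjamini-Hochberg over all genes, threshold 0.05). An SE is the log2 fold change over the root of F. Library deviations used log2 CPM with a prior count of 2. The fitting procedure was also run on simulated counts, with changes larger than that of any member and with no clock pattern. That run therefore does not bear on differences as small as those of the members. Versions were DESeq2 1.42.0, edgeR 4.0.16 and limma 3.58.1, under R 4.3.3.

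Names, exon lengths and sequences came from the RefSeq annotation and genome of TAIR10.1, matched by gene code, which held all 36 members. It is not the build the authors named, and no coordinates were converted. In each role group, values in every library are printed for the member with the highest mean CPM and for those with the highest and lowest log2 fold change. The other members are given by range and count, except that levels of RBCS3B, RPE, PRK, GOX1, AGT1, PGLP1 and GDCH1 were added after their values were seen. Alternatives were RLE and upper-quartile factors, no filter, a minimum mean of 5 CPM, the edgeR exact test, limma voom, DESeq2, leaving out each library, a replicate block, a term for clock pattern, the 4 libraries of the common pattern, a threshold of 0.01, and means in place of medians. Medians were also taken without RBCS1B, RBCS2B, RBCS3B, PGLP1, GOX1 and GOX2.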

Additional observations from a re-analysis of the deposited data

How the results depend on the processing

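Both pathway medians stayed positive and within 1 within-group SD under all alternatives run. They ran from 0.30 to 0.40 for the Calvin cycle and from 0.24 to 0.39 for photorespiration. Means over members, taken in place of medians, were 0.32 and 0.22. Their difference was 0.02, from 0.0061 to 0.10 with single libraries left out and 0.10 with means over members. The count of members past the threshold was 0 by edgeR (14 at an unadjusted p under 0.05, against 18.2% of all genes), 1 by the exact test, 4 by DESeq2 and 9 with the clock term. It was 0 by edgeR with any single library left out, with 10 to 20 members at an unadjusted p under 0.05. There were 10 where 2382 of 19435 or 2419 of 19444 genes tested were under it. There were 20 where 3805 of 19836 or 3937 of 19838 were. The count over all genes was 13. It was 841 by the exact test (398 higher, 443 lower), 620 by DESeq2, 22 by limma voom, 56 with no filter, 992 with the clock term, 38 in the 4 libraries of the common clock pattern and 1 at an adjusted p of 0.01. With single libraries left out it ran from 0 (without BP12-2 replicate 3; 2382 at an unadjusted p under 0.05) to 56 (without WT replicate 1). It was 1 without BP12-2 replicate 2 or WT replicate 2 and 2 without WT replicate 3. The cause was not tested.

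The log2 fold change of 4 members changed sign. Leaving out single libraries gave ranges of -0.10 to 0.060 for FBA3, -0.18 to 0.28 for CAT2 and -0.38 to 0.025 for GLDP2. AT1G56190 was at -0.017 without BP12-2 replicate 3 and -0.0016 without WT replicate 3. FBA3 was at 0.00066 with upper-quartile factors and at 0.060, 0.033 and 0.014 without BP12-2 replicate 1, WT replicate 1 and WT replicate 2. CAT2 was at -0.089 in the 4 libraries of the common clock pattern, -0.041 without BP12-2 replicate 3 and -0.18 without WT replicate 3, and GLDP2 at 0.025 without WT replicate 1. Over the 16 alternatives for each of the 36 members, 552 values kept their sign and side of the threshold, 14 passed it and 10 changed sign.

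Same-numbered libraries did not deviate together (correlations of -0.31, 0.057 and -0.30 for replicates 1 to 3), and BP12-2 replicate 1 was nearest to WT replicate 3 (0.47), so not every library correlated best with its own number. With a replicate block the edgeR test called 0 genes (2558 at an unadjusted p under 0.05) and 0 members.

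Without WT replicate 3 the log2 fold change of GAPB was 0.11. The effect of depth on the calls was not tested, and counts within the RBCS cluster and of PGLP1 cannot be assigned with certainty.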

Other observations

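Among the genes beside the members, 3 with no overlap of the groups were picked as examples after their values were seen. Every BP12-2 library lay above every WT library for 6 of 22 genes around photorespiration and 2 of 14 of Rubisco assembly and activation. The same held for 2 of 9 cytosolic or minor isoforms and 1 of 12 regulators. In the same order 1, 0, 1 and 1 lay wholly below. Over all genes the shares were 12.1% above and 12.2% below. TKL2 (AT2G45290), a transketolase gene of much lower level than TKL1, was at 97.4, 99.6 and 108 CPM in BP12-2 and 141, 156 and 130.2 CPM in WT. All BP12-2 values lay under every WT value, and it had a log2 fold change of -0.49 ± 0.10 (SE; edgeR adjusted p = 0.0949). TRXF2 (AT5G16400), one of the f-type thioredoxins that activate Calvin cycle enzymes in the light, was at 124, 80.8 and 77.1 CPM in BP12-2 and 56.9, 48.4 and 67.1 CPM in WT, highest in BP12-2 replicate 1, with a log2 fold change of 0.71 ± 0.21 (SE; edgeR adjusted p = 0.146). PLGG1 (AT1G32080), the plastid exporter of glycolate and importer of glycerate, was at 201, 189 and 201 CPM in BP12-2 and 154, 139.9 and 149 CPM in WT, with a log2 fold change of 0.42 ± 0.09 (SE; edgeR adjusted p = 0.0949). None of these passed the test over all genes.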
